A study of Homo sapiens with 6 samples.

Results

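The genes described here are 43 mitotic genes: the mitotic cyclins and their kinase, the spindle, kinetochore and checkpoint proteins, the kinesins, the cytokinesis proteins and the pair of transcription factors that drive them. They were chosen by name, with no value in the rule but with earlier results of these data known, and each was found in the table by the Entrez gene number that its symbol maps to. All 43 were among the 25702 genes listed, and all 43 passed the filter of a mean normalised read count of 10 or more, as did 15622 genes in all. RNA was sequenced from RMS13, an established human line derived from rhabdomyosarcoma, a muscle-like tumour. The siGLI1 group received a small interfering RNA (siRNA) aimed at GLI1, the zinc finger transcription factor at the end of the Hedgehog pathway. The siNT2 group received an siRNA that the labels call non-targeting. Both groups were RMS13 cells in serum-containing RPMI medium, and the labels' treatment protocol gives 72 h of incubation. There were 3 libraries per group, all from this single line. The labels name neither the siRNA sequences nor whether each library stands for its own culture. The p-values therefore reflect how far libraries of a group differ, and that spread may be technical.

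Mitosis begins when CDK1 bound to a B-type cyclin is freed of its inhibitory phosphates by CDC25 phosphatases. Kinetochores then capture spindle microtubules, and the spindle checkpoint holds back the anaphase-promoting complex until every chromosome is attached. The complex next marks securin and the cyclins for destruction, the chromatids part, and the cleavage furrow divides the cell. Most of these genes are transcribed late in the cell cycle under the MuvB complex joined by MYBL2 or FOXM1, so in cycling cells their transcripts tend to rise and fall together. In proliferating tumour cells such as those of rhabdomyosarcoma they serve as markers of division. In bulk RNA, fewer cells in mitosis and less RNA per cell cannot be told apart.

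GLI1 had 579.9 to 1274.1 normalised counts in siGLI1 libraries, against 11962.5 to 17836.9 in siNT2 libraries. The siGLI1 mean was 6.48% of the siNT2 mean, and limma called GLI1 lower (adjusted p = 0.000425). Depth ranged from 13673977 to 18947614 reads per library. The muscle markers summed to 50485 to 77082 in siGLI1 libraries, against 44394 to 62139 in siNT2 libraries. MYOD1 and MYOG, the transcription factors that define the muscle lineage, were abundant throughout, and MYF5 was near 0. Some muscle markers separated the groups, with siGLI1 higher. DES had 7073.5 to 10477.9 in siGLI1 libraries and 3499.1 to 4696.8 in siNT2 libraries. In the same order TNNT2 had 1882.3 to 3747.1 and 801.4 to 1055.8, and CHRNA1 6610.4 to 6958.9 and 4092.3 to 4528.6. Likewise MYH3 had 227.9 to 362.5 and 93.3 to 147.1, and MYMK 58.3 to 68.1 and 12.8 to 28.4. The groups overlapped in MYOD1, MYOG, MYF5, CHRNG and CDH15. Epithelial markers summed to 28.6 to 38.9 in siGLI1 libraries and 50.7 to 59.8 in siNT2 libraries. Blood markers summed to 43.2 to 76.1 in siGLI1 libraries and 38.3 to 78.1 in siNT2 libraries, with HBB at 0 in all 6. Endothelial markers summed to 94.1 to 102.7 in siGLI1 libraries and 13.6 to 26.4 in siNT2 libraries, with PECAM1 at 81.8 to 90.9 in siGLI1 libraries and 5.6 to 14.2 in siNT2 libraries. The part of these markers in the results was not tested.

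As a whole the mitotic genes moved little 72 h after the knockdown. CCNB2, which encodes cyclin B2, rose, and no other member passed the test on the values as deposited. That is 1 of 43 higher, where 7.21% of all tested genes were higher, and 0 of 43 lower, where 8.0% were lower (limma, Benjamini-Hochberg adjusted p under 0.05 over all 15622 genes). At an unadjusted p under 0.05 limma had 3 members higher and 6 lower, where 4943 of all 15622 genes passed in either direction. edgeR called 1 higher and 0 lower, where 1182 and 1200 of all genes were. DESeq2 called 2 higher (CCNB2 and BIRC5) and 2 lower (CDC25B and INCENP), where 1645 and 1634 of all genes were. The median log2 fold change, siGLI1 minus siNT2, was 0.03 over the members and -0.01 over all genes tested. Member values ran from -0.67 for CDC25B to 0.60 for CCNB2, and no member reached a fold of 2, which 9.48% of all tested genes did. The groups did not overlap in 6 members with siGLI1 higher, where 17.4% of all genes did so, and in 10 members with siGLI1 lower, where 18.8% did so. Without siGLI1 replicate 2 or without siNT2 replicate 1 no member was called. Of all genes 283 were higher and 358 lower in the first of these fits, and 414 and 449 in the second. Without siGLI1 replicate 3 there were 2 higher (CCNB2 and MAD2L1) and 2 lower (CDC25B and AURKB), where 1562 and 1705 of all genes were. Libraries of the same number carry a shared code in the labels' descriptions, whose meaning is not stated. With that number as a block in limma no member was called, where 462 of all genes were higher and 508 lower.

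Libraries of the same group differed from each other along the GC content of the transcripts, and many mitotic genes are AT-rich, so the comparison was also made with that trend removed. A smooth curve of each library's log2 deviation on GC content was subtracted. This step also takes away any part of the group difference that runs along GC content. The members' median standard error was then 0.11, against 0.17 as deposited. With the trend removed, 2 of 43 members were higher (CCNB2 and BIRC5), where 16.5% of all tested genes with a GC value were higher. There were 7 of 43 lower (CDC25B, CENPE, AURKB, DLGAP5, HMMR, NUSAP1 and ECT2), where 16.1% of all genes were lower. The share of members lower, 16.3%, is close to that background, and the share higher, 4.65%, is below it. The median member was at -0.03 and the median gene at 0.002. The other 34 members were called in neither fit, and for 24 of these the 95% interval with the trend removed lay inside 0.5 on the log2 scale on both sides of 0. When the slope along GC content entered the model as a covariate instead, 8 members were higher, where 23.9% of all genes were, and 14 were lower, where 24.8% were. Within their groups, values rose most with GC content in siGLI1 replicate 3 and siNT2 replicate 2. Leaving both out, a choice made after seeing the data, gave 5 members higher and 6 lower as deposited. Of all 15622 genes 2236 were then higher and 2356 lower. With the trend removed as well, 3 members were higher and 10 lower, where 2515 and 2543 of 14647 genes were. With the replicate number as a block and the trend removed, 2 members were higher and 6 lower, the ECT2 call being lost (adjusted p = 0.0816). Of 14647 genes 1898 were higher and 1851 lower in that fit.

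**Figure D1:**
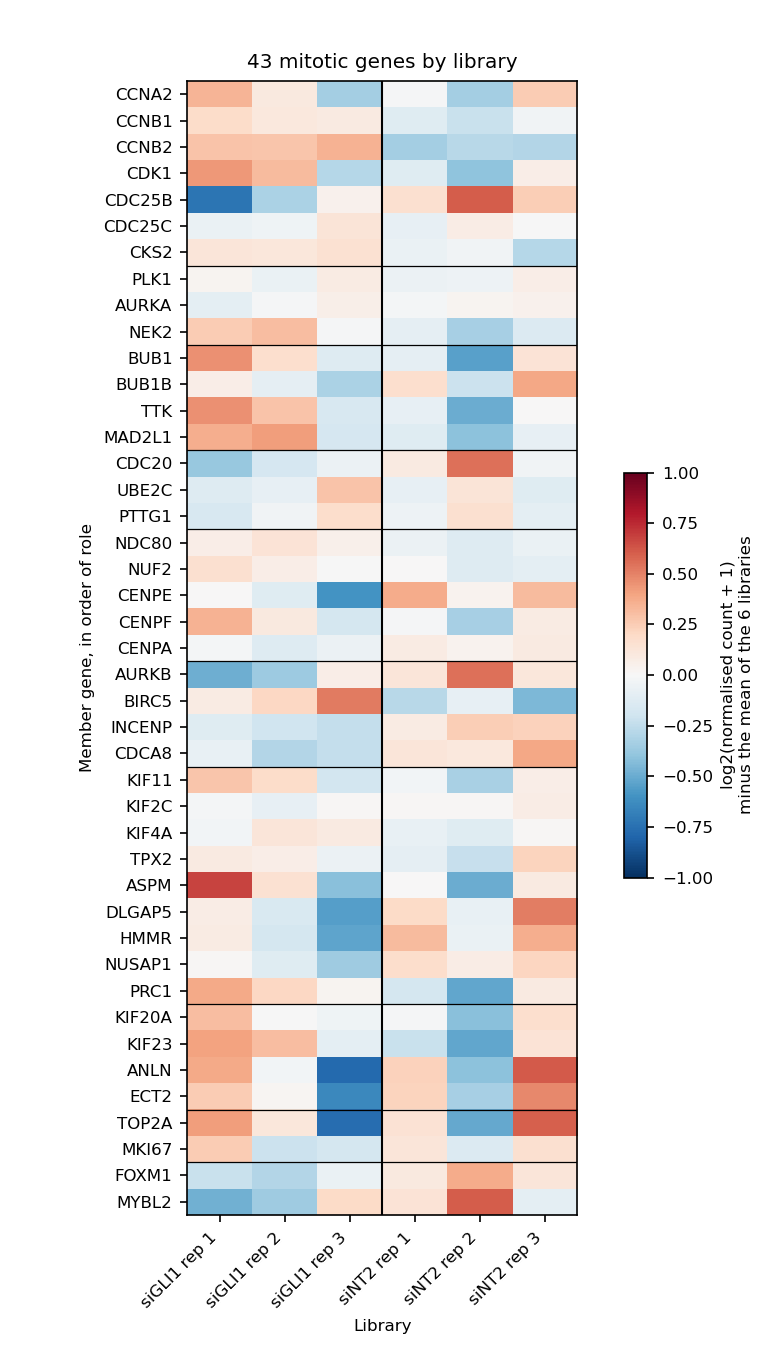
Heat map of the 43 mitotic genes (rows, in order of role, lines between roles) in the 6 libraries (columns, siGLI1 left of siNT2). Colour is log2(normalised count + 1) minus the gene's mean over the 6 libraries. CCNB2 and BIRC5 are higher in all 3 siGLI1 libraries, while ANLN, ECT2 and TOP2A differ more within each group than between groups.

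**Figure D2:**
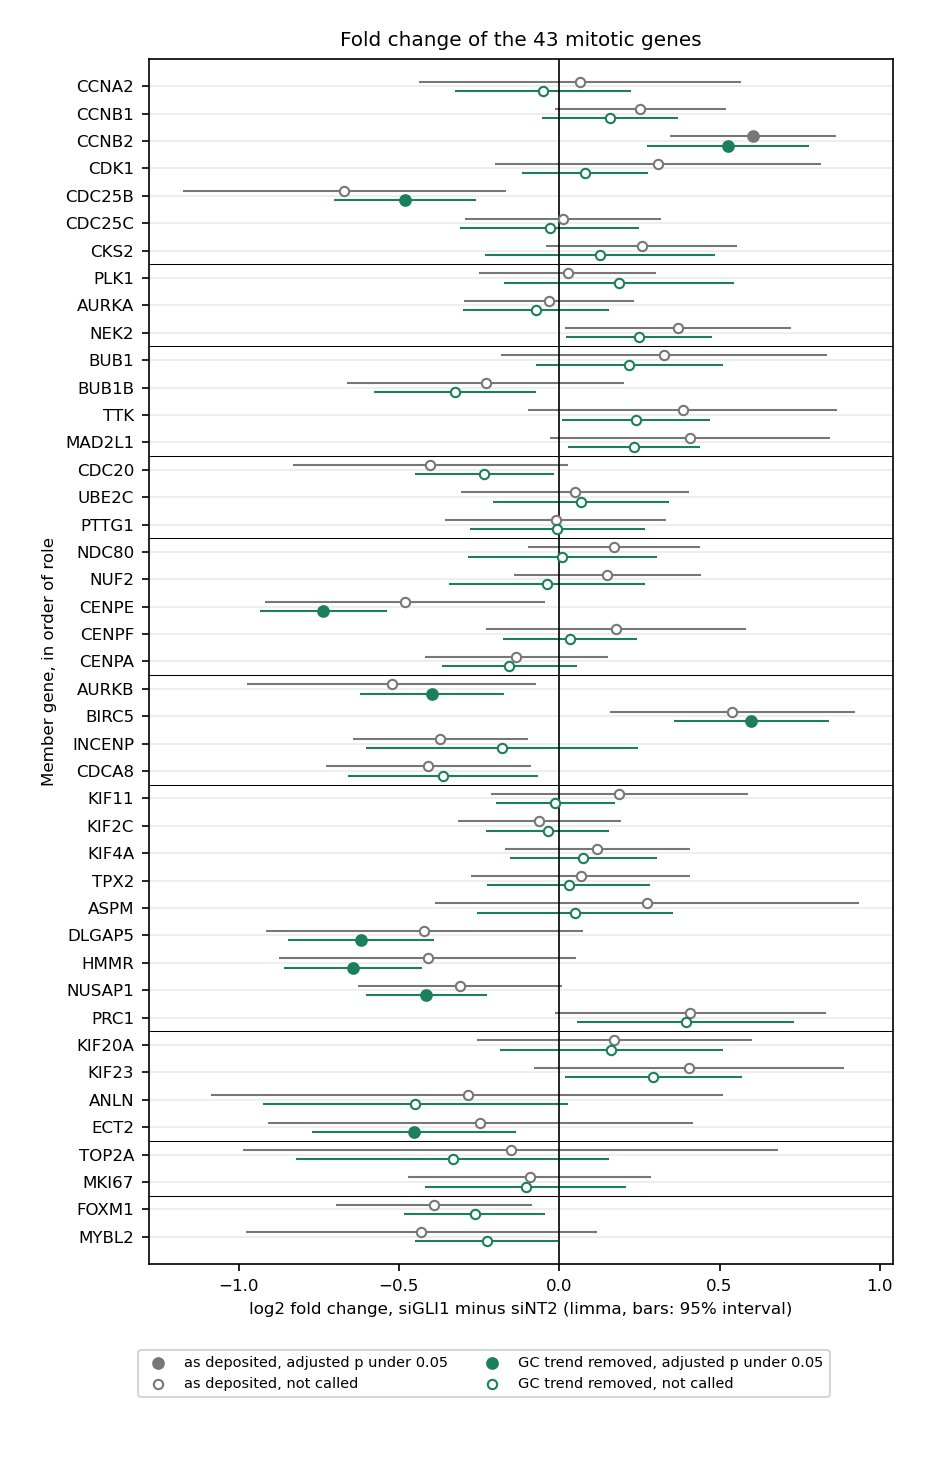
Log2 fold change of each mitotic gene, siGLI1 minus siNT2 (horizontal axis), with 95% intervals from limma. Grey is the fit to the values as deposited and green the fit with the GC trend removed, and filled points have an adjusted p under 0.05. CCNB2 is filled in both fits, and 8 further genes are filled in the green fit alone.

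The members share letters in their promoters that the choice of genes did not use. RefSeq promoter windows (GRCh38.p14, 250 bases before to 50 after each annotated start) were on hand for 37 members in 47 windows. The letters searched, on both strands and counting overlapping matches, were CCAAT, which the factor NF-Y binds, and TTTGAA, the core of the cell cycle homology region that MuvB complexes bind. CCAAT was in 74.5% of the members' windows, TTTGAA in 61.7% and both in 51.1%. Over all 16586 windows of tested genes the shares were 34.9%, 10.8% and 4.24%. Among 54 DNA replication genes, of which 46 had windows, they were 56.5%, 3.23% and 1.61%, and among 149 other mitotic genes, of which 130 had windows, 47.8%, 32.1% and 19.0%. A match is only a run of letters and not a shown binding site. The windows of CCNB2 (the member that rose in both fits), HMMR and CENPE (the members that fell most with the GC trend removed) are printed 5′ to 3′ on the gene's strand, with the searched letters in capitals. On the opposite strand CCAAT reads ATTGG, and the other element, when found there, reads TTCAAA. They lie at chr15:59104896-59105195 on the plus strand, chr5:163460382-163460681 on the plus strand and chr4:103198294-103198593 on the minus strand.
CCNB2: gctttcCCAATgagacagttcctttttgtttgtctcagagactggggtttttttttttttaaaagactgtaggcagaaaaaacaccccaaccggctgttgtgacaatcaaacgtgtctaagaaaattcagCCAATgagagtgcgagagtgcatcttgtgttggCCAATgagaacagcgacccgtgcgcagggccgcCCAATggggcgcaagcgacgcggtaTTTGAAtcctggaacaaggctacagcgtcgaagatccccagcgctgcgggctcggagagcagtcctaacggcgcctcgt
HMMR: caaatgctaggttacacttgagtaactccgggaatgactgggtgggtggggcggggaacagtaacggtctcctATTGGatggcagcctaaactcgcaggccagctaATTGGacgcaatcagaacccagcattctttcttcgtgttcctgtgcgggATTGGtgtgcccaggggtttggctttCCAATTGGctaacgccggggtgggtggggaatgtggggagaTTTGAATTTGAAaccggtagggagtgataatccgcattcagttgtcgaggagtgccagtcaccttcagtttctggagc
CENPE: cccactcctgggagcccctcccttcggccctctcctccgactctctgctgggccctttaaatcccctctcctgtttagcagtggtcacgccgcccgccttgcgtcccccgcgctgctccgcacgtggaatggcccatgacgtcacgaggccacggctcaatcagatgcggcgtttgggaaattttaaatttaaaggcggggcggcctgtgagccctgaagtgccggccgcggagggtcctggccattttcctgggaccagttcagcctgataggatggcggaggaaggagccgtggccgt

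CCNB2 carried 4 CCAAT matches and 1 TTTGAA match, the last beginning 29 bases before the start. HMMR carried 5 CCAAT matches, of which 2 overlap in a palindrome, and 2 adjoining TTTGAA matches, beginning 28 and 22 bases before the start. CENPE carried neither. CCNB2, which rose, held both sets of letters, as did HMMR, which fell with the GC trend removed. CENPE, which also fell with the trend removed, held none of them. These 3 genes were picked by their fold changes, and BIRC5, called higher with the trend removed, had no window on hand. Whether the letters bear on the direction of change was not tested. Over the 37 members, 22 genes had both in at least 1 window and 3 genes, CENPE, KIF2C and MYBL2, had neither.

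Among CDK1, its cyclins, phosphatases and binding subunit, cyclin B2 rose and the phosphatase CDC25B was lower in the fit with the GC trend removed. CCNB2 had 2657.7, 2642.7 and 2776.3 normalised counts in siGLI1 libraries, against 1725.1, 1804.3 and 1787.0 in siNT2 libraries. The groups stood far apart, with a gap many times the spread within either. Its mean of 2692 ± 73.2 in siGLI1 cells was 151.9% of the 1772 ± 41.7 in siNT2 cells (SD, n = 3 each). On the log2 scale CCNB2 rose by 0.60, with a standard error of 0.11 and a 95% interval of 0.34 to 0.86 (adjusted p = 0.0128, limma), and by 0.53 with the GC trend removed (adjusted p = 0.0075). The call as deposited was lost without siGLI1 replicate 2 (adjusted p = 0.0767) and without siNT2 replicate 1 (adjusted p = 0.0788), and also with the replicate number as a block (adjusted p = 0.084). With the trend removed it held in all 6 fits that left out 1 library and with the block (adjusted p = 0.0254).

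CDC25B, which removes the inhibitory phosphates from CDK1 at mitotic entry, had 1563.8, 2086.6 and 2669.6 counts in siGLI1 libraries, against 2895.6, 3947.3 and 3071.7 in siNT2 libraries. Every siGLI1 library lay below every siNT2 library, though siGLI1 replicate 3 came within reach of siNT2 replicate 1. The log2 fold change of -0.67 (95% interval -1.18 to -0.17) was not called as deposited (adjusted p = 0.0781). With the GC trend removed CDC25B fell by 0.48 (standard error 0.10, adjusted p = 0.00626). CCNB1, the main B-type cyclin, had no overlap between groups, with siGLI1 higher, but was not called, at 0.25 (95% interval -0.01 to 0.52). CKS2, the small subunit that docks on CDK1, was likewise apart at 0.26 and not called (adjusted p = 0.214). CDK1 itself (0.31), CCNA2, the cyclin of S phase and early mitosis (0.07), and CDC25C, the other late phosphatase (0.01), had overlapping groups.

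Of the entry kinases, NEK2, which splits the centrosome pair, had 516.2, 534.7 and 429.6 counts in siGLI1 libraries, against 406.3, 343.8 and 392.3 in siNT2 libraries. The groups did not overlap, yet the log2 fold change of 0.37 (95% interval 0.02 to 0.72) missed the adjusted threshold (adjusted p = 0.142), as did 0.25 with the GC trend removed (adjusted p = 0.0908). PLK1 and AURKA, which mature the centrosomes and build the spindle poles, had close means. PLK1 averaged 1749 ± 89.0 in siGLI1 cells and 1716 ± 85.0 in siNT2 cells, and AURKA 2670 ± 142 in siGLI1 cells and 2728 ± 56.1 in siNT2 cells (SD, n = 3 each). Their 95% intervals as deposited were -0.25 to 0.30 for PLK1 and -0.30 to 0.23 for AURKA.

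No spindle checkpoint gene was called by limma in either fit. At an unadjusted p under 0.05 none of the 4 was reached as deposited, and edgeR and DESeq2 called none of them. With the GC trend removed limma's unadjusted p was 0.0177 for BUB1B, 0.0305 for MAD2L1, 0.0436 for TTK and 0.1235 for BUB1. With the GC slope as a covariate limma called BUB1B lower (adjusted p = 0.000496) and MAD2L1 higher (adjusted p = 0.0311). In that fit 24.8% of all genes were lower and 23.9% higher. MAD2L1, the Mad2 protein that sequesters CDC20, had 2567.0, 2665.2 and 1780.7 counts in siGLI1 libraries, against 1831.6, 1506.1 and 1888.3 in siNT2 libraries. Replicate 3 of siGLI1 fell inside the siNT2 range, and the other siGLI1 libraries lay above it. Limma gave 0.41 on the log2 scale (95% interval -0.03 to 0.85, adjusted p = 0.183), and without siGLI1 replicate 3 it was 0.59 (adjusted p = 0.0324). BUB1 (0.33) and TTK (0.39), the kinases that start the checkpoint signal, had values above 0. BUB1B, the checkpoint subunit BubR1, had -0.23 as deposited and -0.33 with the GC trend removed (adjusted p = 0.053).

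CDC20, which activates the anaphase-promoting complex, had 926.6, 1074.5 and 1154.6 counts in siGLI1 libraries, against 1281.5, 1765.7 and 1173.0 in siNT2 libraries. The groups did not overlap, but siGLI1 replicate 3 and siNT2 replicate 3 lay close together. Its log2 fold change was -0.40 (95% interval -0.83 to 0.03, adjusted p = 0.182), and -0.23 with the GC trend removed (adjusted p = 0.0925). UBE2C, the complex's ubiquitin-conjugating enzyme, averaged 3604 ± 592 in siGLI1 cells and 3462 ± 326 in siNT2 cells (SD, n = 3 each). PTTG1, or securin, was at -0.01, though its reads may be shared with the near-identical copies PTTG2 and PTTG3P. The sum of the 3 had a log2 difference of -0.05.

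In the kinetochore, the motor CENPE stood apart from the structural proteins. CENPE, the kinesin that carries chromosomes toward the spindle equator, had 1942.8, 1786.0 and 1280.0 counts in siGLI1 libraries, against 2512.4, 1985.8 and 2425.0 in siNT2 libraries. The siGLI1 libraries were all lower, by little where siGLI1 replicate 1 meets siNT2 replicate 2. As deposited the log2 fold change of -0.48 (95% interval -0.92 to -0.04) was not called (adjusted p = 0.126). With the GC trend removed CENPE fell by 0.74 (standard error 0.09, adjusted p = 0.000472), and the call held in all 6 fits that left out 1 library. CENPE is the most AT-rich member, at 35.3% GC. NDC80 (0.17) and NUF2 (0.15), subunits of the complex that grips microtubules, were not called, and with the trend removed they stood at 0.01 and -0.04. CENPF, a large outer kinetochore protein and the member with the highest mean count, averaged 13071 ± 2348 in siGLI1 cells and 11525 ± 1670 in siNT2 cells (SD, n = 3 each). CENPA, the histone variant that marks the centromere, was slightly lower in every siGLI1 library, at -0.13, and was not called.

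In the chromosomal passenger complex BIRC5 lay higher in siGLI1 cells and its 3 partners lower. As deposited the groups overlapped in none of the 4, where they did not overlap in 5659 of all 15622 genes tested. BIRC5, or survivin, had 1876.9, 2049.8 and 2543.2 counts in siGLI1 libraries, against 1463.7, 1676.5 and 1295.8 in siNT2 libraries. AURKB, the kinase of the complex, had 1160.9, 1268.7 and 1707.6 in siGLI1 libraries, against 1776.7, 2382.4 and 1763.9 in siNT2 libraries. Thus each siGLI1 library held more BIRC5 and less AURKB than any siNT2 library, although siGLI1 replicate 3 was close to the siNT2 range for AURKB. The log2 fold change of BIRC5 was 0.54 (95% interval 0.16 to 0.92, adjusted p = 0.0652) and that of AURKB -0.52 (95% interval -0.97 to -0.07, adjusted p = 0.111), so neither was called as deposited. With the GC trend removed BIRC5 rose by 0.60 (standard error 0.11, adjusted p = 0.00334) and AURKB fell by 0.40 (standard error 0.10, adjusted p = 0.0153). The BIRC5 call held in all 6 fits that left out 1 library and the AURKB call in 5, being lost without siGLI1 replicate 2 (adjusted p = 0.0735).

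INCENP, the scaffold that holds the complex together, averaged 2012 ± 79.6 in siGLI1 cells and 2604 ± 156 in siNT2 cells (SD, n = 3 each). CDCA8, or borealin, averaged 1459 ± 118 in siGLI1 cells and 1940 ± 219 in siNT2 cells (SD, n = 3 each). Neither was called by limma, with adjusted p = 0.0731 for INCENP and 0.0867 for CDCA8. DESeq2 on the recovered reads did call INCENP (adjusted p = 0.0425). With the GC trend removed the INCENP groups overlapped, at -0.18 (95% interval -0.60 to 0.25), and CDCA8 stood at -0.36 (adjusted p = 0.0617).

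Of the 9 spindle motors and microtubule-binding proteins, limma called none as deposited, at either an adjusted or an unadjusted p under 0.05, and edgeR and DESeq2 called none. With the GC trend removed 3 of the 9 fell (33.3%, where 16.1% of all tested genes with a GC value were lower): DLGAP5, HMMR and NUSAP1. DLGAP5, which stabilises kinetochore fibres, had 1216.0, 1037.7 and 786.2 counts in siGLI1 libraries, against 1319.9, 1097.4 and 1645.9 in siNT2 libraries. HMMR, a microtubule-binding protein of the spindle poles, had 659.8, 552.1 and 432.6 in siGLI1 libraries, against 777.4, 596.4 and 800.6 in siNT2 libraries. In both genes siGLI1 replicate 1 lay above siNT2 replicate 2, so the groups overlapped as deposited. NUSAP1, which bundles microtubules around chromosomes, had 2881.3, 2627.4 and 2229.1 in siGLI1 libraries, against 3234.9, 3002.1 and 3314.9 in siNT2 libraries, with no overlap. The log2 fold changes as deposited were -0.42 for DLGAP5 (adjusted p = 0.22), -0.41 for HMMR (adjusted p = 0.203) and -0.31 for NUSAP1 (adjusted p = 0.166). With the trend removed DLGAP5 fell by 0.62 (adjusted p = 0.00217), HMMR by 0.64 (adjusted p = 0.00138) and NUSAP1 by 0.42 (adjusted p = 0.00584), and all 3 calls held in each of the 6 fits that left out 1 library.

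PRC1, which crosslinks microtubules of the central spindle, had 4008.8, 3558.7 and 3136.8 counts in siGLI1 libraries, against 2719.9, 2143.0 and 3275.9 in siNT2 libraries. Only siGLI1 replicate 3 fell below the highest siNT2 library. The log2 fold change was 0.41 as deposited (adjusted p = 0.17) and 0.39 with the GC trend removed (95% interval 0.06 to 0.73, adjusted p = 0.0735). The remaining motors and assembly factors lay nearer to 0 with the trend removed. KIF11, the motor that pushes the poles apart, was at -0.01 (95% interval -0.20 to 0.17), KIF2C, which depolymerises microtubule ends, at -0.04, TPX2, the activator of AURKA, at 0.03, and ASPM, a spindle pole protein, at 0.05. KIF4A, a motor that binds chromosomes, was at 0.08, and its reads may be shared with the near-identical copy KIF4B. The sum of both had a log2 difference of 0.21 as deposited.

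Among the cytokinesis genes, ECT2 was called in the fit with the GC trend removed and no other was. ECT2, the exchange factor that switches on RhoA at the furrow, had 693.3, 589.9 and 372.3 counts in siGLI1 libraries, against 678.6, 462.5 and 811.0 in siNT2 libraries. The groups overlapped widely, and as deposited the log2 fold change of -0.25 (95% interval -0.91 to 0.42) moved to 0.01 without siGLI1 replicate 3. With the trend removed it fell by 0.45 (standard error 0.14, adjusted p = 0.0371), a call that was lost without siGLI1 replicate 2, siGLI1 replicate 3, siNT2 replicate 1 or siNT2 replicate 3, with adjusted p of 0.0971, 0.0896, 0.114 and 0.11 in that order. KIF23, the kinesin of the central spindle that recruits ECT2, had 3053.0, 2861.5 and 2159.0 counts in siGLI1 libraries, against 1982.0, 1610.6 and 2551.0 in siNT2 libraries, with a log2 fold change of 0.40 (adjusted p = 0.228). Its groups overlapped through siGLI1 replicate 3 and siNT2 replicate 3. KIF20A, another central spindle kinesin, was at 0.17, and ANLN, the furrow scaffold, at -0.29 with the widest interval but 1 of all members (-1.09 to 0.51).

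TOP2A, which untangles sister chromatids, ran from 4326.9 to 9770.3 counts in siGLI1 libraries, against 5134.9 to 11078.7 in siNT2 libraries. The libraries of each group were far apart, and its log2 fold change of -0.15 had the widest interval of the members (-0.99 to 0.68). MKI67, the Ki-67 protein that coats mitotic chromosomes and is the usual marker of dividing cells, had 12799.5, 9263.3 and 9551.5 counts in siGLI1 libraries, against 11677.0, 9773.9 and 12024.5 in siNT2 libraries. The groups overlapped, and the siGLI1 mean was 94.4% of the siNT2 mean, or -0.09 on the log2 scale, with a 95% interval of -0.47 to 0.29 (adjusted p = 0.736).

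The factors that drive these genes both lay below 0 and neither was called. FOXM1 had 3325.2, 3159.0 and 3692.8 counts in siGLI1 libraries, against 4151.8, 5002.1 and 4212.0 in siNT2 libraries. All siGLI1 libraries were lower than all siNT2 libraries, at -0.39 on the log2 scale, with a 95% interval of -0.70 to -0.08 (adjusted p = 0.0872), and -0.26 with the GC trend removed (adjusted p = 0.0668). FOXM1 overlaps the listed genes ITFG2 and RHNO1, and the sources used here do not say whether reads were counted by strand. MYBL2 averaged 8994 ± 2352 in siGLI1 cells and 12118 ± 3117 in siNT2 cells (SD, n = 3 each), at -0.43 as deposited (adjusted p = 0.255) and -0.23 with the trend removed (adjusted p = 0.112).

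**Figure D3:**
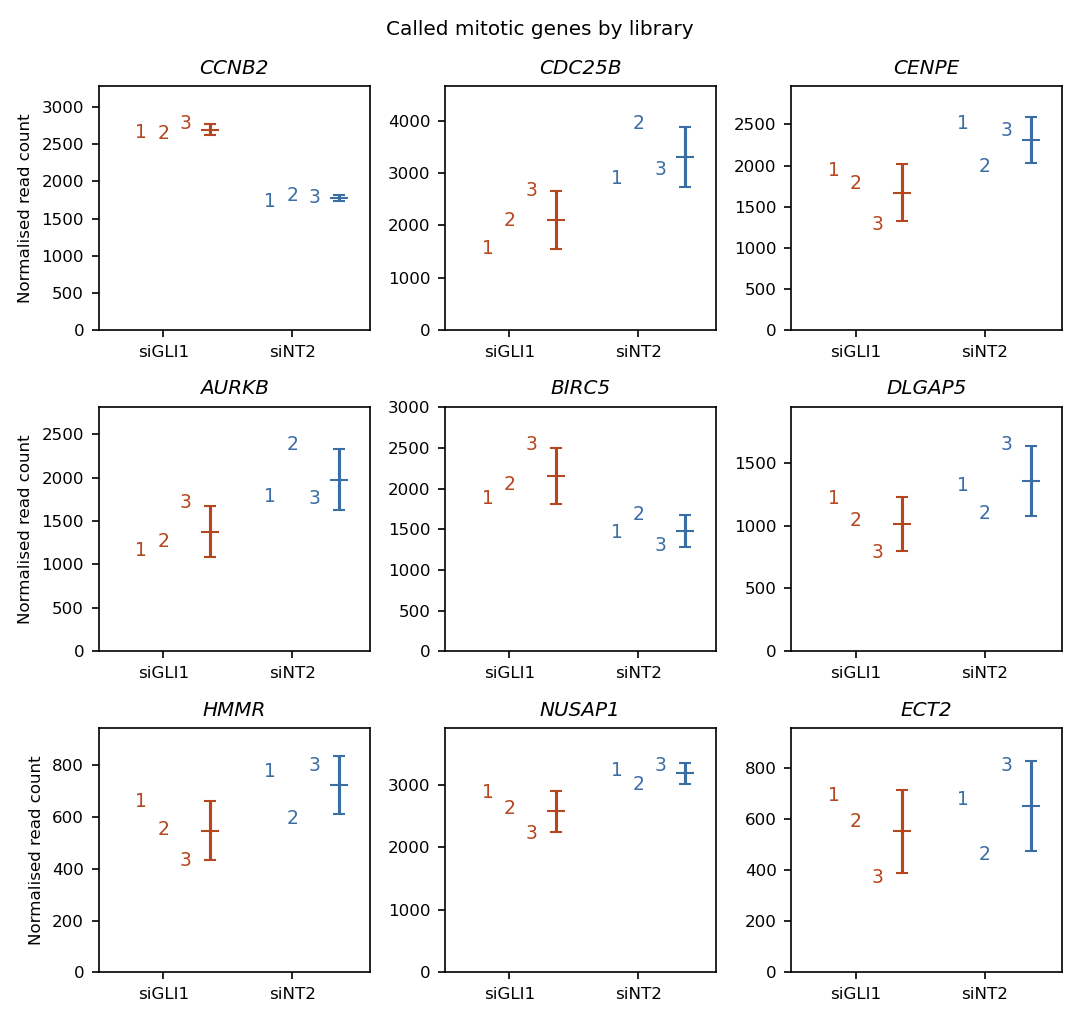
Normalised read count (vertical axis, from 0) of the 9 mitotic genes called in either fit. Digits are the replicate numbers of siGLI1 (left) and siNT2 (right), and bars are the mean and SD of 3 libraries. CCNB2 and BIRC5 lie higher in all siGLI1 libraries, and DLGAP5, HMMR and ECT2 overlap between groups in these values as deposited.

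As deposited, the members' fold changes ran partly along GC content. The median GC content of the members' transcripts was 43.2%, against 49.2% over all genes tested. Across the 43 members the rank correlation of log2 fold change with GC content was -0.26, and 0.04 with the trend removed, and across all genes tested it was -0.29 as deposited. All genes share the same 6 libraries, so these correlations are descriptions only. When the members were divided by GC content, a division chosen after seeing the data, the 23 members under 45% had a median log2 fold change of 0.18, and the 7 over 55% one of -0.40, with 6 of those 7 below 0. With the trend removed the medians were 0.01 and -0.23. Within the 23 members under 45% the rank correlation was 0.37 as deposited and 0.52 with the trend removed. The 0.04 over all members therefore does not mean that no run along GC content was left. Of the 7 members called lower with the trend removed, 5 were among these 23 (CENPE, DLGAP5, HMMR, NUSAP1 and ECT2). That is 21.7% of the 23, beside 28.6% of the members over 55% and 16.1% of all tested genes with a GC value. The share among all genes under 45% GC is not given here, so no concentration of the calls in AT-rich members is read from this.

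The same libraries were low in gene after gene. Of the 23 members under 45% GC, siGLI1 replicate 3 was the lowest of its group in 21 and siNT2 replicate 2 the lowest of its group in 21. Across all genes the log2 value rose by 0.20 per 10 points of GC content in siGLI1 replicate 3, relative to the mean of the 6 libraries, and changed by -0.34 and -0.13 in siGLI1 replicates 1 and 2. In the siNT2 libraries it rose by 0.34 in replicate 2 and changed by 0.004 and -0.07 in replicates 1 and 3. What sets these slopes was not tested. Between the library of each group whose values rose most with GC content (siGLI1 replicate 3 and siNT2 replicate 2), and between the means of the other 4, the log2 difference was 0.62 and 0.59 for CCNB2, 0.60 and 0.51 for BIRC5, -0.56 and -0.72 for CDC25B, -0.48 and -0.54 for AURKB, and -0.63 and -0.41 for CENPE. These 5 had been called over the same 6 libraries, so their signs are no separate support, and 38 of all 43 members had the same sign in both sets. The first set has 1 library per group and no replicate check.

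**Figure D4:**
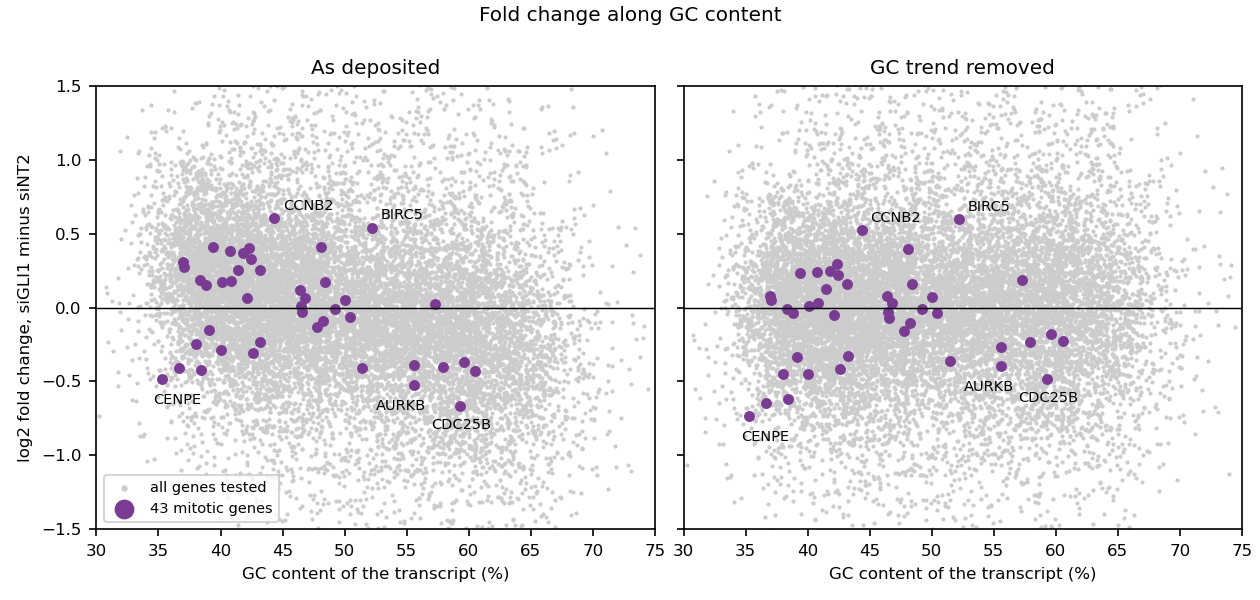
Log2 fold change, siGLI1 minus siNT2 (vertical axis), against the GC content of each gene's transcript in percent (horizontal axis), as deposited (left) and with the GC trend removed (right). Grey dots are all genes tested and purple dots the 43 mitotic genes, and 528 genes (left) and 493 genes (right) lie beyond the axis limit of 1.5. AT-rich members lie mostly above 0 on the left and on both sides of 0 on the right.

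A ratio of 2 members within a library removes anything that scales both alike, including most of a GC trend when the GC contents are close. Each of the 9 members called in either fit was therefore set over the member, uncalled in both fits, whose GC content is nearest, leaving aside the members with near-identical copies. These pairs were picked after the calls were known, so whether they overlap between groups is no support, and the ratios are given as values without a test. HMMR over CDK1 was 0.262, 0.238 and 0.283 in siGLI1 libraries, against 0.455, 0.424 and 0.410 in siNT2 libraries, a log2 difference of -0.72. The raw HMMR counts overlapped between groups, and the ratios did not. CENPE over CDK1 differed by -0.79 on the log2 scale, NUSAP1 over BUB1 by -0.64, DLGAP5 over KIF11 by -0.61 and ECT2 over KIF11 by -0.43. CCNB2 over BUB1B differed by 0.83 and BIRC5 over CDCA8 by 0.95. In AURKB over FOXM1 (-0.13) and CDC25B over INCENP (-0.30) the groups overlapped. The partner's own value enters each ratio. As deposited the partners' log2 fold changes were -0.23 for BUB1B, -0.41 for CDCA8, 0.31 for CDK1, 0.19 for KIF11 and 0.33 for BUB1, each opposite in sign to the member set over it, which widens those ratios. They were -0.39 for FOXM1 and -0.37 for INCENP, the same sign as AURKB and CDC25B, which narrows those.

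Partners in the same machine were also compared. BIRC5, AURKB, CENPE and CCNB2 had already been called in these same libraries, so separation of these ratios is no support either. BIRC5 over AURKB was 1.62, 1.62 and 1.49 in siGLI1 libraries, against 0.824, 0.704 and 0.735 in siNT2 libraries. The mean ratio was 1.57 ± 0.07 in siGLI1 cells and 0.754 ± 0.062 in siNT2 cells (SD, n = 3 each), with a log2 difference of 1.06. These counts are not scaled by length, so the crossing of 1 does not compare transcript numbers. Per kilobase BIRC5 stood below AURKB in both groups, at 795.5 against 1099.8 in siGLI1 cells and 545.4 against 1574.4 in siNT2 cells. BIRC5 over INCENP differed by 0.91. CENPE over CENPF was 0.126, 0.137 and 0.119 in siGLI1 libraries, against 0.209, 0.206 and 0.188 in siNT2 libraries, a log2 difference of -0.66, with little spread inside each group. CCNB2 over CCNB1 was 0.588, 0.615 and 0.654 in siGLI1 libraries, against 0.469, 0.528 and 0.460 in siNT2 libraries. The share of cyclin B2 reads relative to cyclin B1 reads was therefore higher in every siGLI1 library, by 0.35 on the log2 scale. CCNB2 over CDK1 overlapped between groups (0.30).

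**Figure D5:**
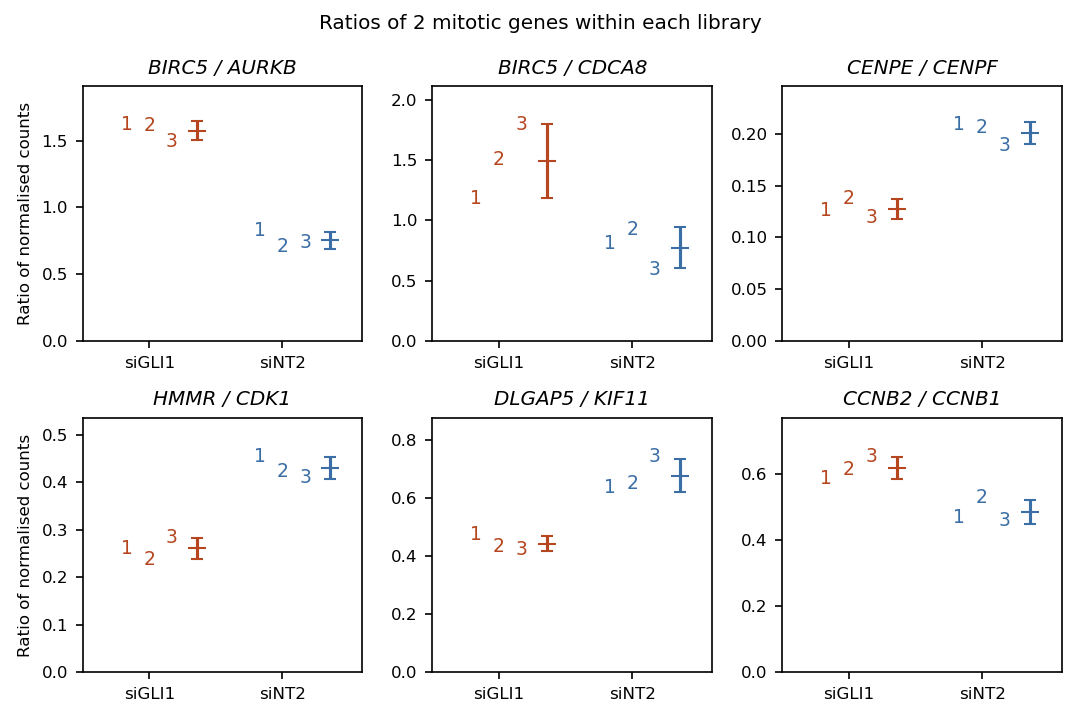
Ratio of the normalised counts of 2 mitotic genes within each library (vertical axis, from 0), for 6 pairs. Digits are the replicate numbers of siGLI1 (left) and siNT2 (right), and bars are the mean and SD of 3 ratios. The pairs were picked after their values were seen, and BIRC5 over AURKB lies higher in all siGLI1 libraries. Counts are not scaled by length, so a ratio above or below 1 does not compare transcript numbers.

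Per kilobase of the longest coding transcript, the levels of the members spanned a wide range. MYBL2 was at 3326 normalised counts per kilobase in siGLI1 cells and 4482 in siNT2 cells, and UBE2C at 3943 in siGLI1 cells and 3787 in siNT2 cells, so these led in both groups. CCNB1 followed with 2009 in siGLI1 cells and 1687 in siNT2 cells. At the low end of both groups stood ECT2, with 125.2 per kilobase in siGLI1 cells and 147.7 in siNT2 cells. The next lowest was HMMR in siGLI1 cells, at 176.7, and NEK2 in siNT2 cells, at 178.7, where HMMR had 233.7. MYBL2 was at percentile 99.0 of all genes tested in siGLI1 cells and 99.3 in siNT2 cells, and ECT2 at 50.4 in siGLI1 cells and 54.6 in siNT2 cells. The lowest member thus sat about midway in the ranking of tested genes.

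Among 149 other mitotic genes, in 8 lists by role, 2 were higher (1.34%, where 7.21% of all genes tested were) and 10 lower (6.71%, where 8.0% were), with a median log2 fold change of -0.09. With the GC trend removed 9 were higher (6.04%, where 16.5% were) and 36 lower (24.2%, where 16.1% were), and the median was -0.12. Without siGLI1 replicate 2 there were 1 higher and 2 lower, where 283 and 358 of all 15622 genes were. Without siGLI1 replicate 3 there were 8 higher and 20 lower, where 1562 and 1705 of all genes were. ZW10, a kinetochore protein of the checkpoint, had 179.3, 190.2 and 156.0 counts in siGLI1 libraries, against 506.2, 391.5 and 555.0 in siNT2 libraries, and fell by 1.45 on the log2 scale (adjusted p = 0.00279). In the MuvB and DREAM complex list, LIN52, a core MuvB subunit, fell by 1.38 (adjusted p = 0.00781), TFDP1, the dimer partner of E2F factors, by 1.35 (adjusted p = 0.00635) and the histone chaperone RBBP4 by 0.55 (adjusted p = 0.0274). LIN52 had 121.0, 103.3 and 97.8 counts in siGLI1 libraries, against 282.2, 213.0 and 367.6 in siNT2 libraries, so this partner of FOXM1 and MYBL2 was at 37.3% of its siNT2 mean.

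In spindle assembly, CEP152, a scaffold of centriole duplication, fell by 1.02 (adjusted p = 0.0206), KIFC1, a motor that gathers the spindle poles, by 0.72 (adjusted p = 0.00866) and HAUS4, an augmin subunit, by 0.56 (adjusted p = 0.0398). ESPL1, the protease separase that cuts cohesin, fell by 0.74 (adjusted p = 0.0124). In cytokinesis, CIT, the citron kinase of the midbody, fell by 0.76 (adjusted p = 0.00885) and ARHGAP11A, which switches RhoA off, by 0.79 (adjusted p = 0.0263). DEPDC1 rose by 1.05 (adjusted p = 0.00618) and SHCBP1 by 0.65 (adjusted p = 0.0477). Leaving out single libraries kept the calls of ZW10, TFDP1 and DEPDC1 in all 6 fits, and those of the other 9 were lost in 1 to 5 of them.

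DNA replication genes, the cell cycle list that sits just before mitosis, had 16 of 54 members lower in siGLI1 cells (29.6%, where 8.0% of all genes tested were lower) and 0 higher. After removal of the GC trend 30 fell (55.6%, where 16.1% of all genes fell) and 0 rose. With the replicate block as deposited 4 fell, where 508 of all genes did. At an unadjusted p under 0.05 limma had 1 higher in either fit. edgeR and DESeq2 called 0 higher, with 16 and 22 lower, where 1200 and 1634 of all genes were lower. The median log2 fold change was -0.40 as deposited and -0.41 with the trend removed, beside 0.03 and -0.03 for the mitotic members. Without siGLI1 replicate 2 or without siNT2 replicate 1 there were 4 lower, where 358 and 449 of all genes were in that order. UHRF1, which keeps DNA methylation through replication, had 1695.5, 1618.3 and 1613.8 counts in siGLI1 libraries, against 4887.5, 4372.3 and 4874.7 in siNT2 libraries, and fell by 1.52 (adjusted p = 0.000514). CLSPN, or claspin, fell by 1.19 (adjusted p = 0.00137) and TIPIN, a fork protection protein, by 1.14 (adjusted p = 0.00349). The difference between the lists themselves was not tested.

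Some limits touch single members. The heptamer GCACCTC, singled out in earlier results of these data because its carriers were lower more often, was in the annotated 3' UTR of 2 of 43 members, CDC25B and MKI67 (4.65%), against 9.24% of tested genes with an annotated 3' UTR. Of the 149 other mitotic genes 14 carried it (9.4%). Of the 12 named above, 5 carried it (ZW10, TFDP1, LIN52, CIT and ARHGAP11A), and its part in their values was not tested. Those 12 were named because they were called, 10 of them lower, and the heptamer was singled out in these same data. The 5 carriers are therefore no support for a part of the heptamer. In all, 10 members overlap another listed gene, among them CCNA2 with EXOSC9, CDC25C with FAM53C and KIF20A with CDC23, whose mean counts were 1218, 1413 and 1560, so reads from these neighbours may be mixed.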

How the data were processed

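The authors deposited 1 table, whose signal values are reads per gene scaled by a size factor for each library and not by length. Per the submitters' processing notes, reads were handled with Trim Galore 0.4.5, bcl2fastq, featureCounts of Subread 1.6.4, Bowtie2 2.3.3.1, DESeq2 2.11.40.6 and build hg19, in no stated order. For strand and multiply mapping reads the setting is not given in the sources used here. In each library 100.0% of values came to whole numbers of reads within 0.01, so whole reads were recovered for the count tests. A count of 0 allows up to 3 reads (2.39 to 3.29 in deposited units), for counting error only. No libraries of a group agreed within sampling noise (chi-square per degree of freedom 10.3 to 65.3), so all 6 were kept.

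Symbols came from RefSeq (GRCh38.p14) for 23696 of 25702 IDs (92.2%). GC content, lengths and 3' UTRs came from the longest coding transcript in GENCODE 29, which gave GC content for 14647 of 15622 tested genes (93.8%). The main test was limma 3.58.1 in R 4.3.3 (lmFit, eBayes with trend) on log2(value + 1), for genes with a mean of 10 or more, Benjamini-Hochberg threshold 0.05, group as the only term. Fold changes on this scale understate those of low genes. The GC trend was removed with a centred lowess curve (span 0.3) per library. edgeR 4.0.16 and DESeq2 1.42.0 on recovered reads, other pseudocount, filter, scaling, weights, span and single libraries left out were alternatives. The fits were tested on simulated counts. Plots and summaries used Python 3.11.15.

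The members and lists were chosen with earlier results of these data known. Values in every library are given for members called in either fit, the member with the smallest p in each of 10 role groups, the 3 highest and 3 lowest fold changes, at most 12 called genes among the other mitotic genes and 3 replication genes. CCNA2, INCENP and others outside this rule are named to account for every member.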

Additional observations from a re-analysis of the deposited data

How the results depend on the processing

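The medians of the mitotic genes and the GLI1 knockdown kept their direction or stayed within the library spread under every alternative run, while counts of called genes moved. Counts are higher, then lower, in siGLI1 cells. Among the 43 mitotic genes (1 and 0) they were 2 and 2 with DESeq2, 18 and 17 with library weights, 2 and 7 with the GC trend removed, 2 and 6 with the replicate block and the GC trend removed, 8 and 14 with the GC slope covariate, and 5 and 6 without the 2 GC-high libraries. Leaving out single libraries gave 0 to 2 and 0 to 2. From the fit with the GC trend removed (2 and 7), library weights gave 11 and 17, and leaving out single libraries 2 to 4 and 5 to 10. Counts over all genes are not given here for those fits, so these numbers are no result about the members in particular. Library weights ran from 0.143 to 70.4, since their estimate did not settle, and those counts should be read with that in mind.

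Among the other mitotic genes (2 and 10) the counts were 5 and 16 with DESeq2, 48 and 74 with library weights, 9 and 36 with the GC trend removed, 5 and 25 with the replicate block and the GC trend removed, 15 and 58 with the GC slope covariate, and 16 and 28 without the 2 GC-high libraries. They were 1 higher without the filter on low values and 1 to 8 and 2 to 20 without single libraries. Among the replication genes (0 and 16) they were 4 and 45 with library weights, 0 and 30 with the GC trend removed, 0 and 26 with the replicate block and the GC trend removed, 1 and 40 with the GC slope covariate, 1 and 29 without the 2 GC-high libraries, and 0 and 4 to 19 without single libraries. Over all genes (1127 and 1249) they were 6209 and 6410 with library weights, 2411 and 2358 with the GC trend removed, 1898 higher with the replicate block and the GC trend removed, 3499 and 3636 with the GC slope covariate, 2236 and 2356 without the 2 GC-high libraries, and 283 to 1562 and 358 to 1705 without single libraries. edgeR gave 1182 and 1200. The cause of these shifts was not tested, beyond fewer libraries in the fits that leave some out.

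Same-numbered libraries of the groups share a code in the labels' descriptions, which do not say what it marks, and their deviations correlated at 0.49, -0.11 and -0.61, so the values did not show pairing. With the replicate block the counts were 462 and 508 over all genes, 0 and 0 among the mitotic genes, 1 and 3 among the other mitotic genes and 0 and 4 among the replication genes. No siGLI1 library correlated best with the siNT2 library of its own number. The best match was siNT2 replicate 3 for siGLI1 replicates 1 (0.574) and 2 (0.154), and siNT2 replicate 2 for siGLI1 replicate 3 (0.755). Of the siNT2 libraries only replicate 1 correlated best with its own number.

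Of the named genes, ECT2 ran from -0.473 to 0.013 as deposited when single libraries were left out, the sign changing without siGLI1 replicate 3.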
